A study of Mus musculus with 4 samples.

Results

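The 8 genes described here encode inhibitors of cyclin-dependent kinases (CDKs), taken by symbol from a table of 56350 mouse genes: Cdkn1a, Cdkn1b and Cdkn1c of the CIP/KIP family, Cdkn2a, Cdkn2b, Cdkn2c and Cdkn2d of the INK4 family, and Cdkn3, which encodes a phosphatase that acts on CDKs. Each symbol was found once, and 6 of the 8 had enough counts to be tested. RNA was sequenced from EO771, a mammary carcinoma cell line of the C57BL/6 mouse strain, in 4 libraries. In 2 libraries the cells had been cultured for 48 h with 1.0 µM BML-210, an inhibitor of histone deacetylases (HDACs). The other 2 are labelled untreated and carry WT in their titles, although the treatment protocol speaks of a vehicle control. The comparison asks how the drug changes gene expression in this cell line, and every fold change is that of the BML-210 libraries over the untreated ones.

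CDKs drive the cell cycle when bound to cyclins. CIP/KIP proteins bind cyclin-CDK complexes of G1 and S phase, whereas INK4 proteins bind only CDK4 and CDK6 and keep D-type cyclins from them. Loss of CDK activity leaves the RB protein unphosphorylated, and E2F target genes stay off. Cdkn1a is among the genes usually reported to rise when HDACs are inhibited.

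Gene counts summed to 13167893 in the smallest library and 16534667 in the largest. No gene was deleted or overexpressed here, so no target gene checks the labels. The library codes in the table (D for untreated, V for BML-210) do not settle the direction on their own, since V could also stand for vehicle. The direction of the labels was used as given, and every fold change would change sign if the labels were swapped. Nothing in the labels says that the libraries of a group came from separate cultures, so p-values measure the spread between these libraries, which may be technical. With 2 libraries a group, the spread used for each gene also draws on that of the other genes. Of 10 mammary epithelial markers 3 could be tested, and 2 of them fell in the edgeR test described next, Krt8 (log2 fold change -0.59) and Esr1 (-0.74). Cdh1 (-0.07) did not pass. The list summed to 50.0 and 54.6 CPM (counts scaled to library size) in the untreated and to 32.7 and 36.1 in the BML-210 libraries, most of it Krt8, while Epcam (1 to 3 counts) and Krt18 (0 to 2) were near 0 and Pgr and Elf5 at 0. Of 10 macrophage markers 4 could be tested, and Cd68 (-2.38) and Adgre1 (-2.98, from 33 and 13 counts to 1 and 4) fell. Ptprc (0.02, 6 to 16 counts) and Lyz2 (-0.40) did not pass. The macrophage list summed to 167 and 171 CPM, then 35.6 and 34.5, most of it Cd68. Lyz2 had 24 to 49 counts, Tyrobp 0 to 3 and C1qc 0. Of 5 fibroblast markers Pdgfra fell (-0.68) and Col1a1 did not pass, with sums of 176 and 183, then 116 and 123 CPM, and Lum and Thy1 at 0. Endothelial markers, of which 0 of 2 tested passed, summed to 6.19 to 8.55 CPM, and T cell markers to 0.143 to 0.303. Their part in the results below was not tested, and in bulk RNA fewer cells of a type and less RNA per cell cannot be told apart.

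Among the 6 tested genes Cdkn1a fell, Cdkn1b and Cdkn3 rose, and Cdkn1c, Cdkn2c and Cdkn2d did not pass the test. In edgeR's quasi-likelihood test, 46.4% of all 14455 tested genes passed an adjusted p of 0.05 (22.9% higher and 23.5% lower), so 3 of 6 is close to that background. The background depends on the fit: it was 27.6% in DESeq2 and 19.3% with no filter on low counts, which both tested more genes (16802 and 32611), and the members that passed were 2 higher and 1 lower in each. The median log2 fold change of the 6 tested members was 0.12, against -0.0025 for all tested genes. Of the genes that passed, 63.3% had a larger absolute log2 fold change than Cdkn1a, 80.5% than Cdkn1b and 38.5% than Cdkn3, so that Cdkn1a and Cdkn1b lay below the median of those genes (0.41) and Cdkn3 above it. The members that passed did not share a direction.

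**Figure D1:**
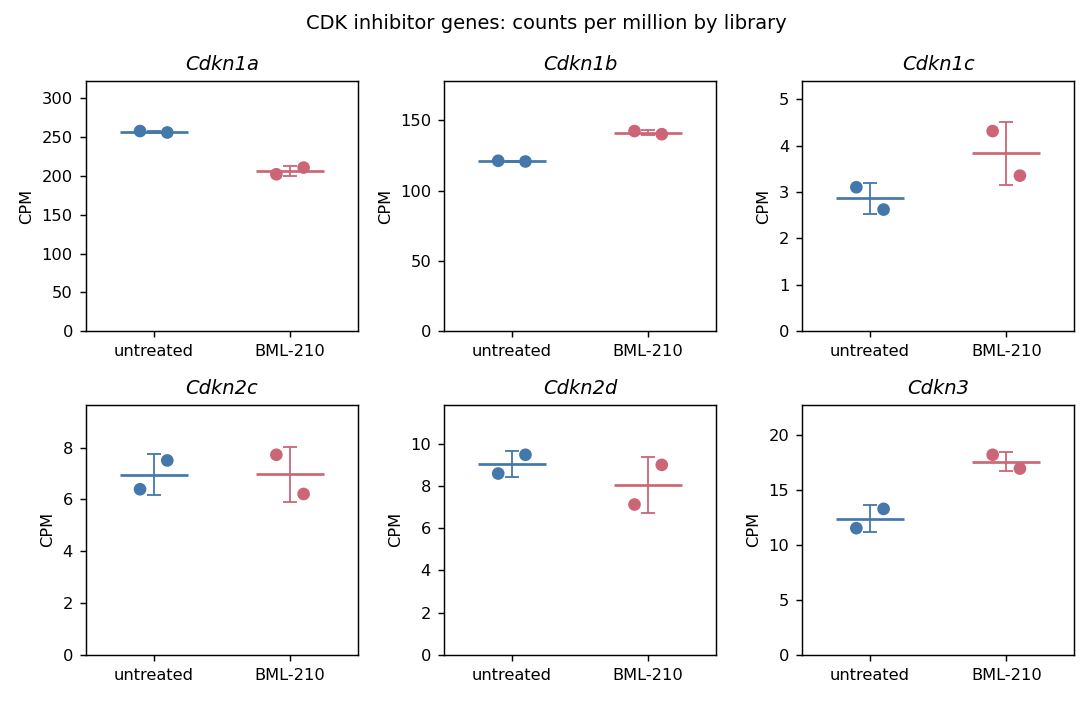
CPM of the 6 tested CDK inhibitor genes in each library (points), with the group mean (line) and SD (bar, n = 2); every axis starts at 0. Cdkn1a is lower in both BML-210 libraries (202 and 211 CPM), Cdkn1b and Cdkn3 are higher in both, and the points of Cdkn2c and Cdkn2d overlap between groups.

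Cdkn1a encodes p21, an inhibitor of CDK2 complexes and a target of the tumour suppressor p53 (ENSMUSG00000023067.14, chromosome 17, 29090976 to 29100727, plus strand, mm10). Its counts, scaled to library size, were 258 and 256 CPM in the untreated libraries and 202 and 211 CPM in the BML-210 libraries. The groups did not overlap, as was true of 71.3% of tested genes (36.1% lower). The mean went from 257 ± 1.30 to 206 ± 6.10 CPM (SD, n = 2), 1.24-fold lower, or -0.32 ± 0.04 (SE) on the log2 scale, with an edgeR adjusted p of 4.97e-11. RefSeq gives this gene starts 2790 bases apart, and gene-level counts do not tell them apart.

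Cdkn1b encodes p27, the inhibitor that holds CDK2 in check in resting cells (ENSMUSG00000003031.14, chromosome 6, 134920401 to 134925513, plus strand). It stood at 121 CPM in each untreated library and at 142 and 140.1 CPM in the BML-210 libraries. Both BML-210 libraries were above both untreated ones, which held for 35.2% of tested genes. The difference was 0.22 ± 0.04 (SE) on the log2 scale with an edgeR adjusted p of 1.59e-05, a 1.17-fold rise from 121 ± 0.342 to 141 ± 1.58 CPM (SD, n = 2). The 2 abundant members of the CIP/KIP family thus moved in opposite directions, and the intervals of their log2 fold changes (95%, -0.39 to -0.24 for Cdkn1a and 0.14 to 0.31 for Cdkn1b) lie on either side of 0.

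Cdkn1c encodes p57, an imprinted inhibitor with a role in embryonic growth (ENSMUSG00000037664.13, chromosome 7, 143458339 to 143461050, minus strand). It was scarce, with 51 and 36 counts in the untreated libraries and 57 and 47 in the BML-210 libraries, or 3.10, 2.62, 4.31 and 3.35 CPM. Both BML-210 values were above both untreated ones, as for 35.2% of tested genes, but the gap was small beside the counting error. For a single library that error was 13.2% to 16.7% of the count. Such limits take in counting error alone, and the processing notes name no step that tells PCR copies apart. The Cdkn1c log2 fold change of 0.41 ± 0.25 (SE) did not pass (edgeR adjusted p = 0.177). Its 95% interval of -0.09 to 0.90 spans a small fall and a rise larger than that of any other member.

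Cdkn3 encodes a dual-specificity phosphatase that removes the activating phosphate of CDKs, and its transcript is known to peak late in the cell cycle (ENSMUSG00000037628.10, chromosome 14, 46760541 to 46771669, plus strand). Its level was 11.5 and 13.3 CPM in the untreated libraries and 18.2 and 16.9 CPM in the BML-210 libraries. Both BML-210 values lay above both untreated ones, as for 35.2% of tested genes. From 12.4 ± 1.24 to 17.5 ± 0.887 CPM (SD, n = 2) it rose 1.42-fold, or 0.51 ± 0.12 (SE) on the log2 scale, with an edgeR adjusted p of 0.000359. All 12 tested proliferation markers rose in the same libraries (median log2 fold change 0.57, where 22.9% of all tested genes were higher), among them the topoisomerase gene Top2a (0.71), the spindle gene Tpx2 (0.67), the replication helicase gene Mcm2 (0.90) and the cyclin gene Ccnb1 (0.83), which the cyclin list also holds. Per length, Cdkn3 stood at 0.404 and 0.488 of the level of Cdk1 in the untreated libraries and at 0.462 and 0.450 in the BML-210 libraries, values that overlap. The part of cell cycle position in the rise of Cdkn3 was not tested.

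To show the DNA before the starts of the 3 genes that passed, the 250 bases upstream of the RefSeq start (GRCm38.p6, the assembly of mm10; for Cdkn1a the downstream start) are given on the coding strand, 5′ to 3′. Capitals mark matches, on either strand, to GGGCGG (the GC box bound by Sp1), CCAAT (the box bound by NF-Y) and TTTGAA (the cell cycle homology region, CHR).
Cdkn1a, chr17:29093519-29093768, plus strand: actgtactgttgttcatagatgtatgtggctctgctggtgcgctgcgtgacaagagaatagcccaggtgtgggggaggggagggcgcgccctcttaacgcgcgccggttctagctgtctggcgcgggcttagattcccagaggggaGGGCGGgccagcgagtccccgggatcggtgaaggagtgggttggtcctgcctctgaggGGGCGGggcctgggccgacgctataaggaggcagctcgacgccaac
Cdkn1b, chr6:134920151-134920400, plus strand: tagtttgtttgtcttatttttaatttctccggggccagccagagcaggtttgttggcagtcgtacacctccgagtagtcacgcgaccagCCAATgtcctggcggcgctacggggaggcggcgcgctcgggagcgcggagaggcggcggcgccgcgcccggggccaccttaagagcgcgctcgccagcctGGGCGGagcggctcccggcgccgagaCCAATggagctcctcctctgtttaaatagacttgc
Cdkn3, chr14:46760291-46760540, plus strand: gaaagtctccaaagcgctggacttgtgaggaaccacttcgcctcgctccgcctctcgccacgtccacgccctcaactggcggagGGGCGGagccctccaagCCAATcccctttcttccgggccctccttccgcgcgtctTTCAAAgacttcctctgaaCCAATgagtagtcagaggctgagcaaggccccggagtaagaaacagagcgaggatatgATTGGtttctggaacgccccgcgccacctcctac

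The Cdkn1a window held 2 GC boxes, starting 104 and 46 bases before the start, and no CCAAT box. The Cdkn1b window held 1 GC box and 2 CCAAT boxes. That of Cdkn3 held 1 GC box, 3 CCAAT boxes and 1 CHR match, the last 111 bases before the start on the reverse strand. Such letters are common: of 32851 windows of the same length in the table, 32.7% held a GC box (16.7% held 2 or more), 33.8% a CCAAT box (10.1% held 2 or more) and 16% the CHR letters. Among the 12462 windows of tested genes the shares were 57.1% for the GC box, 35.5% for the CCAAT box and 10.7% for the CHR letters. The window of the upstream Cdkn1a start, chr17:29090729-29090978, held none of them. In none of these windows was there a match to the TATA box letters TATAAA, to the MYC site CACGTG, to the forkhead site GTAAACA or to the E2F letters TTTCCCGC, TTTGGCGC, TTTCGCGC and TTTGCCGC. A match is a description of the letters and shows no binding.

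No INK4 gene passed the test, and 2 of the 4 had too few counts to be tested. Cdkn2d encodes p19 (ENSMUSG00000096472.2, chromosome 9, 21288410 to 21291407, minus strand) and was at 8.58 and 9.47 CPM in the untreated and 7.12 and 8.99 CPM in the BML-210 libraries. These values overlap between groups, and the difference of -0.16 ± 0.16 (SE) on the log2 scale did not pass (edgeR adjusted p = 0.442; 95% interval -0.47 to 0.16). Cdkn2c encodes p18 (ENSMUSG00000028551.14, chromosome 4, 109660876 to 109667189, minus strand) and was at 6.39 and 7.50 CPM in the untreated and 7.72 and 6.21 CPM in the BML-210 libraries. Each group of Cdkn2c had 1 library above and 1 below the other group's mean, and the difference was 0.01 ± 0.17 (SE) on the log2 scale, with a 95% interval of -0.34 to 0.36 and an edgeR adjusted p of 0.976. The intervals give the changes that these libraries do not exclude, and a p over the threshold does not show that Cdkn2c and Cdkn2d stayed the same.

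Cdkn2b, which encodes p15, had 0 counts in all 4 libraries (ENSMUSG00000073802.5, chromosome 4, 89306299 to 89311039, minus strand). Cdkn2a, which encodes p16 and, from another first exon, the p53 activator ARF, had 1 count in 1 library of each group and 0 in the others (ENSMUSG00000044303.6, chromosome 4, 89274471 to 89294653, minus strand). A count of 0 was taken to allow up to 3 counts, or 0.183 to 0.227 CPM in these libraries. The exact 95% Poisson interval reaches 3.69 counts for a count of 0 and 5.57 counts for a count of 1. The least abundant of the other inhibitors, Cdkn1c, had at least 36 counts a library. No fold change is given. The genes lie 11.6 kb apart. Their neighbour on the side of lower coordinates, Mtap, which encodes an enzyme of methionine salvage and lies 93.4 kb from Cdkn2a, was well expressed, with 1383 and 1226 counts in the untreated and 1287 and 1356 in the BML-210 libraries. Mtap rose slightly (86.7 to 97.1 CPM, log2 fold change 0.16, edgeR adjusted p = 0.00499), a call that ended without untreated replicate 1 (adjusted p = 0.118) and in DESeq2 (0.0529; 0.00212 to 0.118 over 16 alternatives). On the other side the nearest protein-coding gene, Dmrta1, 368.4 kb from Cdkn2b, had 0 or 1 count. Of the 40 annotated genes within 500 kb of the pair, 27 had no count, and Mtap was the only 1 with more than 10 counts over the 4 libraries. These 40 include the pair itself, and 23 are protein-coding, among them a cluster of interferon genes. RNA counts do not measure whether the locus is present in the genome of these cells.

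**Figure D2:**
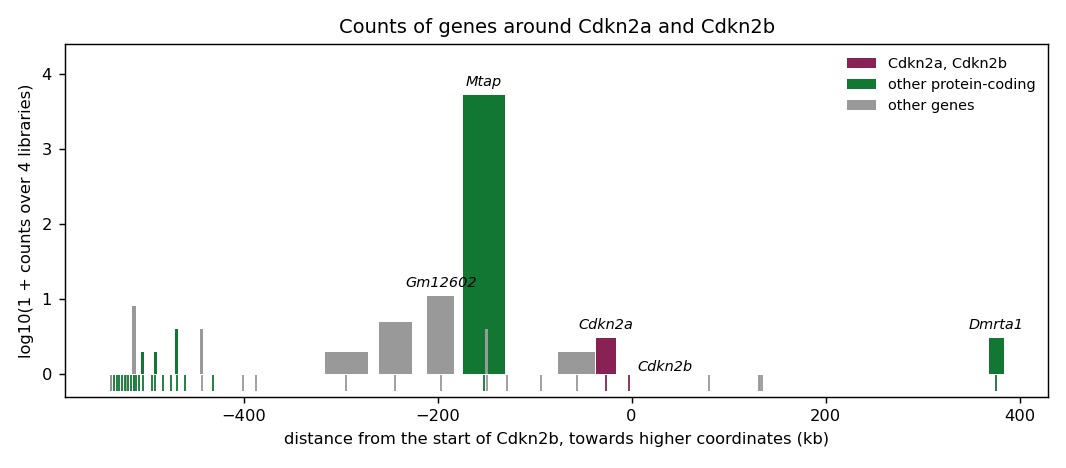
Counts summed over the 4 libraries, as log10(1 + counts), for each of 40 annotated genes within 500 kb of Cdkn2a and Cdkn2b, against the distance from the start of Cdkn2b in kb (ticks under the axis mark each gene; bar width is gene length). Mtap stands alone with a high count, and Cdkn2a (2 counts) and Cdkn2b (0) lie in a stretch with almost none.

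The INK4 locus is a known target of Polycomb repression, and Cdkn1a of HDAC corepressor complexes. Of 14 tested genes for such repressors 6 were higher and 1 lower (median 0.07), and 7 of 14 is close to the 46.4% of all tested genes that passed. The Polycomb genes Bmi1 (0.66), Eed (0.43) and Suz12 (0.27) and the corepressor gene Ncor1 (0.36) rose on the log2 scale. Hdac1 (-0.17, edgeR adjusted p = 0.00851) was lower, but not without untreated replicate 2 (adjusted p = 0.0805) or BML-210 replicate 1 (0.151) or in DESeq2 (0.0957; 0.00184 to 0.151 over 16 alternatives).

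Levels of different genes can be compared only per exonic length, as RPKM (CPM divided by the exonic length in kilobases). That length is the annotated one of the whole gene, not of the transcripts made here. Levels and ratios between genes therefore depend on the annotation. In the untreated libraries the order was Cdkn1a (72.5 and 72.0 RPKM), Cdkn1b (26.6 and 26.5), Cdkn2d (5.45 and 6.02), Cdkn3 (4.85 and 5.59), Cdkn2c (2.38 and 2.79), Cdkn1c (1.52 and 1.29), then Cdkn2a and Cdkn2b. Only Cdkn2d and Cdkn3 were neighbours with overlapping values, apart from the pair at or near 0. Cdkn1a ranked high among all genes, with 3.02% of tested genes above its untreated RPKM, against 10.9% for Cdkn1b, 46.4% for Cdkn2d, 48.7% for Cdkn3, 65.0% for Cdkn2c and 76.5% for Cdkn1c. In the BML-210 libraries Cdkn1a was at 56.8 and 59.3 RPKM and Cdkn1b at 31.3 and 30.8. Cdkn3 (7.66 and 7.13 RPKM) there stood above Cdkn2d (4.52 and 5.71), so that these genes changed places in the order.

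**Figure D3:**
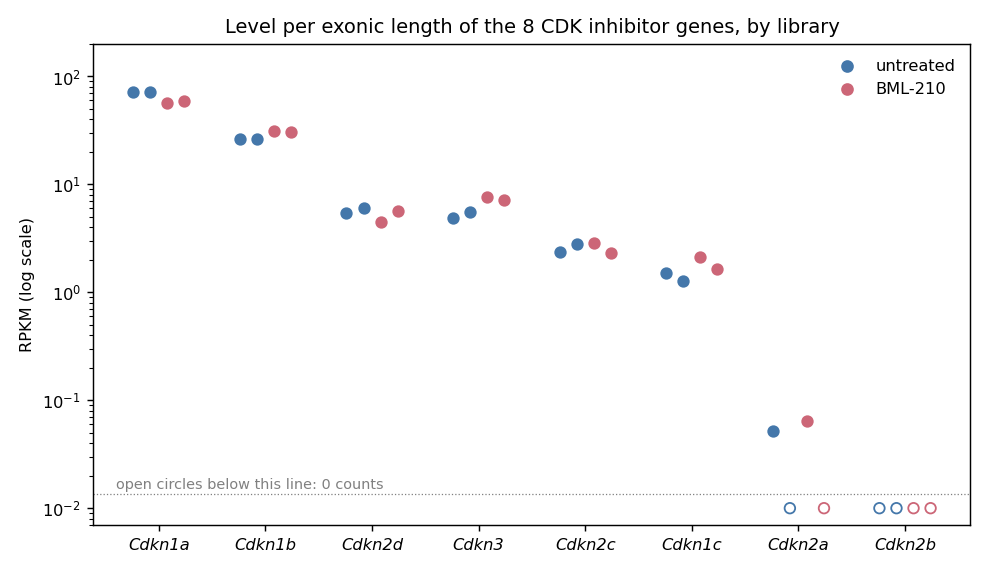
RPKM of each of the 8 CDK inhibitor genes in each library, on a log axis, ordered by the untreated mean; open circles under the dotted line are libraries with 0 counts. Cdkn1a and Cdkn1b stand well above the rest, from 26.5 to 72.5 RPKM, and Cdkn2a and Cdkn2b are at or near 0.

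Because the abundant inhibitors moved in opposite directions, the make-up of the CIP/KIP transcripts shifted more than their sum. Cdkn1a was 2.72-fold above Cdkn1b per length in both untreated libraries and 1.82-fold and 1.93-fold above it in the BML-210 libraries. Its share of the summed CIP/KIP RPKM was 72.0% and 72.1% in the untreated and 63.0% and 64.6% in the BML-210 libraries. The sum itself went from 100.6 and 99.8 to 90.2 and 91.7 RPKM. These sums and ratios describe transcripts, not proteins, and were not tested, since the members were chosen as a family.

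All 4 genes of the kinases that these inhibitors act on rose, where 22.9% of all tested genes were higher. Cdk4, the partner of D-type cyclins, went from 126 to 178 CPM (log2 fold change 0.50 ± 0.04, SE; edgeR adjusted p = 4.58e-16), and Cdk6, its close relative, from 333 to 465 CPM (0.48 ± 0.03; 1.55e-20). The mitotic kinase gene Cdk1 rose by 0.46 ± 0.06 (edgeR adjusted p = 3.12e-10) and the S phase kinase gene Cdk2 by 0.22 ± 0.08 (0.0227). The Cdk2 call was lost without untreated replicate 2 (adjusted p = 0.151), BML-210 replicate 1 (0.0569) or BML-210 replicate 2 (0.124), with upper-quartile factors (0.0502) and in DESeq2 (0.146), and ran from 0.0142 to 0.151 over 16 alternatives. Summed per length, CIP/KIP transcripts were at 1.26 and 1.28 times those of the 4 kinases in the untreated libraries and at 0.824 and 0.831 times in the BML-210 libraries. INK4 transcripts were at 0.125 and 0.142 of those of Cdk4 and Cdk6, then at 0.0853 and 0.0903. Both ratios were lower in each BML-210 library than in each untreated library. The INK4 sum itself overlapped between groups, at 7.88 and 8.81 RPKM untreated and 7.46 and 8.02 with BML-210. The sum of Cdk4 and Cdk6 went from 62.9 and 62.1 to 87.5 and 88.9 RPKM.

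**Figure D4:**
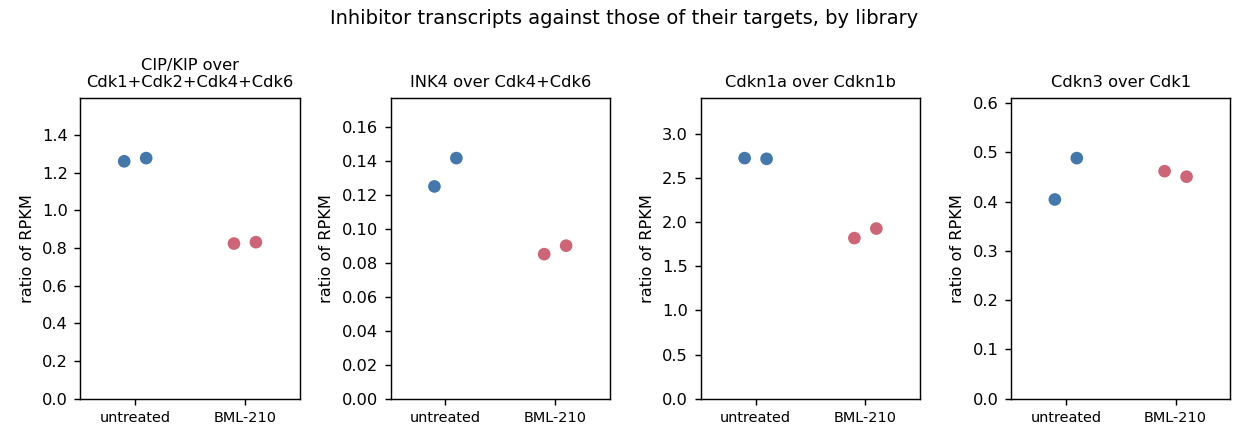
Ratios of RPKM in each library, each axis from 0: CIP/KIP genes over 4 CDK genes, INK4 genes over Cdk4 and Cdk6, Cdkn1a over Cdkn1b, and Cdkn3 over Cdk1. The first 3 are lower in both BML-210 libraries (0.824 and 0.831 against 1.26 and 1.28 for the first), and Cdkn3 over Cdk1 overlaps between groups.

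Of 8 tested cyclin genes 5 rose and 0 fell (median 0.40), beside 22.9% higher and 23.5% lower over all tested genes. The largest rise was that of the S phase cyclin gene Ccna2, from 132 to 286 CPM (log2 fold change 1.11 ± 0.04, SE; edgeR adjusted p = 1.03e-32), followed by Ccne2 (0.89), a partner of CDK2, and the mitotic cyclin genes Ccnb1 (0.83) and Ccnb2 (0.60). The D-type cyclin gene Ccnd2, the most abundant of the list, was at 1293 and 1285 CPM and did not pass (-0.01 ± 0.03, edgeR adjusted p = 0.825). CIP/KIP transcripts were at 2.13 and 2.16 times those of Ccne1, Ccne2 and Ccna2 in the untreated libraries and at 0.970 and 1.02 times in the BML-210 libraries.

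Downstream, 5 of 11 genes of RB pocket proteins and E2F factors were higher and 2 lower (median -0.07; 22.9% and 23.5% over all tested genes). The pocket protein gene Rbl1 (0.61) and the repressive E2F genes E2f7 (0.50), E2f8 (0.55) and E2f4 (0.26) rose. Rbl2, a pocket protein gene of resting cells, fell by 0.27 and Rb1 by 0.13 on the log2 scale. The Rb1 call (edgeR adjusted p = 0.0281) was lost without untreated replicate 2 (0.15), BML-210 replicate 1 (0.0661) or BML-210 replicate 2 (0.16), with library size only (0.0567), with no filter on low counts (0.0662) and in DESeq2 (0.182), and ran from 0.00663 to 0.182 over 16 alternatives.
Among 8 enzymes that switch CDKs on or off, 6 genes were higher and 1 lower (median 0.32), where 22.9% and 23.5% of all tested genes were. The inhibitory kinase genes Pkmyt1 (0.71) and Wee1 (0.43), the activating phosphatase gene Cdc25b (0.32) and the cyclin H gene Ccnh (0.31) rose. Mnat1, a subunit of the CDK-activating kinase, was lower (-0.23, edgeR adjusted p = 0.00561), but not without untreated replicate 2 (adjusted p = 0.112) or BML-210 replicate 2 (0.1) or in DESeq2 (0.0838; 0.00174 to 0.112 over 16 alternatives).

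CIP/KIP proteins are also held down by ubiquitin ligases. Of 12 tested genes of those ligases 4 were higher and 1 lower (median 0.04), and 5 of 12 is no more than the 46.4% of all tested genes. The cullin gene Cul1 (0.81), the p21 receptor gene Dtl (0.72), the p27 cofactor gene Cks1b (0.66) and the mitotic activator gene Cdc20 (0.66) rose, and Ubac1, a subunit gene of the p27 ligase of G1, fell by 0.30. Skp2, which encodes the receptor for p27 in the SCF complex, had only 8 and 13 counts in the untreated and 8 and 4 in the BML-210 libraries and was not tested.

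The regulators of the inhibitor genes were read from a list of 26 transcription factors, of which 21 could be tested: 12 were higher and 3 lower (median 0.17), against 22.9% and 23.5% of all tested genes. Trp53, the gene of p53, rose from 147 to 237 CPM (log2 fold change 0.69 ± 0.04, SE; edgeR adjusted p = 3.96e-23), and Ets2 (0.67), Cebpb (0.50) and the mitotic factor gene Foxm1 (0.76) rose too. Stat3 fell by 0.16. The Id1 value of -0.16 (edgeR adjusted p = 0.0346) did not pass in 4 of 4 fits that left out a library, with adjusted p of 0.053 and 0.158 on leaving out untreated replicates 1 and 2 and 0.201 and 0.0558 on leaving out BML-210 replicates 1 and 2 (0.0119 to 0.219 over 16 alternatives). Nor did it pass with library size only (0.0581), with no filter on low counts (0.0819) or in DESeq2 (0.219).

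While Trp53 rose and Cdkn1a fell, other direct p53 targets went both ways: 9 of 19 tested were higher and 5 lower (median -0.04), the share lower being near the 23.5% of all tested genes and the share higher above their 22.9%. Zmat3 (0.54), the stress-response gene Sesn2 (0.44), the p53 ligase gene Mdm2 (0.22) and Gadd45a (0.31) rose. Sesn1 fell by 0.60. The death gene Pmaip1 was lower (-0.41, edgeR adjusted p = 0.00372), but did not pass without untreated replicate 2 (adjusted p = 0.0589) or in DESeq2 (0.0552; 0.00183 to 0.0589 over 16 alternatives). Of 13 tested genes of growth arrest and quiescence outside the CDK inhibitors 3 were higher and 5 lower (median -0.19), where 3 of 13 is about the 22.9% higher of all tested genes and 5 of 13 is above their 23.5% lower. Among them Gadd45b (-0.67) and the antiproliferative gene Tob1 (-0.28) fell, while Txnip (0.38) and Gas2 (0.73) rose. Btg2 is on both the p53 target list and the growth arrest list and counts among the lower genes of each.

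**Figure D5:**
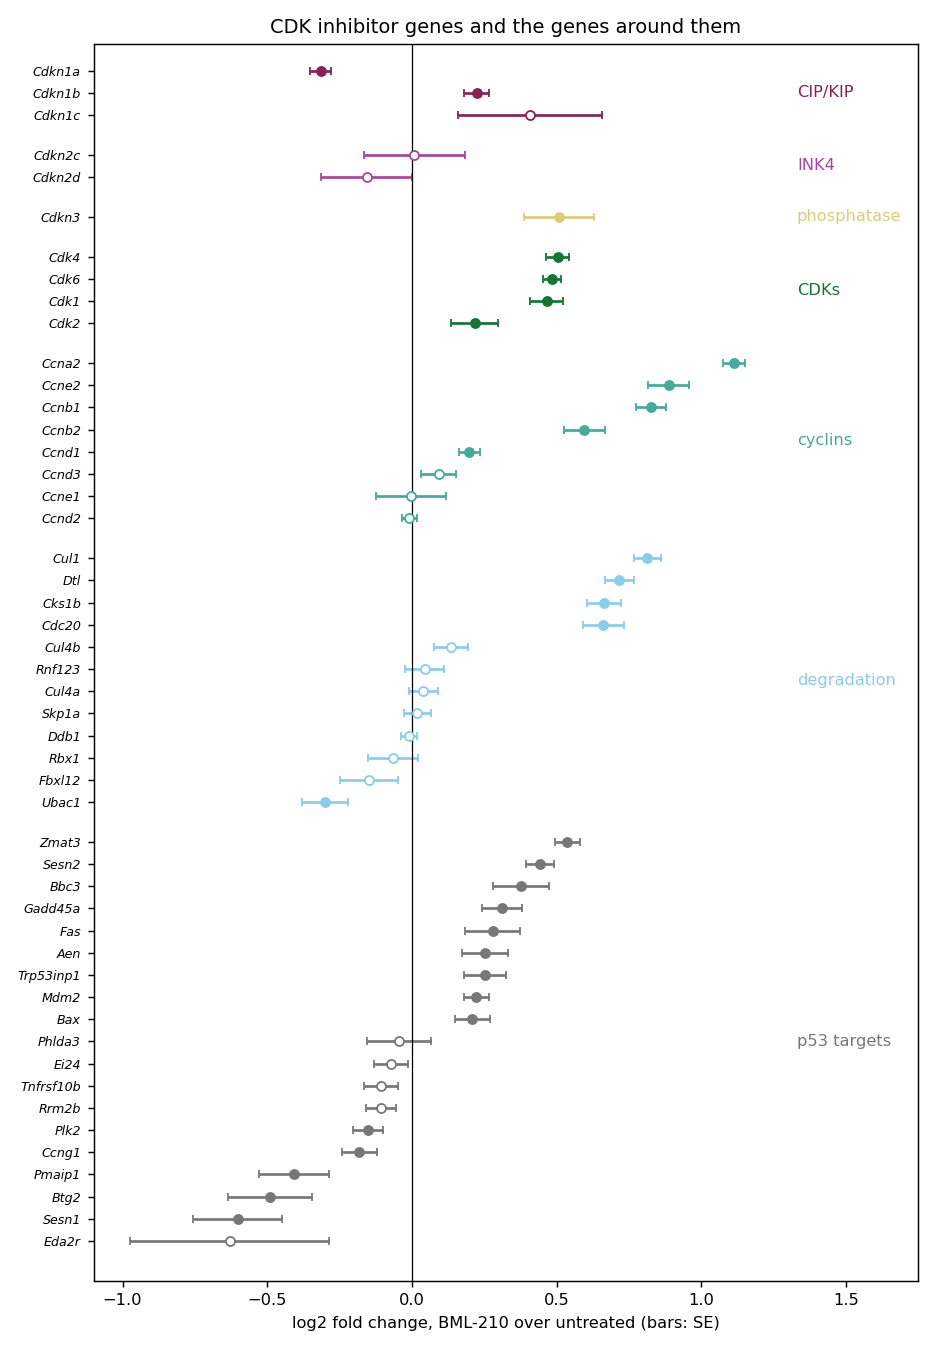
Log2 fold change (BML-210 over untreated) with its SE for the 6 tested CDK inhibitor genes and, below them, the tested genes of the CDKs, cyclins, ubiquitin ligases and p53 targets; filled points passed an adjusted p of 0.05. Cdkn1a (-0.32) lies left of 0 and all 4 CDK genes lie right of it, from 0.22 to 0.50.

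Several of the genes just named share exon bases with another expressed gene on the opposite strand, among them Cdk4 with Tspan31, Ccna2 with Exosc9, Ccne2 with Ints8, Cdc20 with Elovl1, Ccnh with Rasa1, Rbl2 with Aktip and Gas2 with Fancf, and the counting rule for such reads is not stated in the sources at hand. Among the CDK inhibitor genes, 273 exon bases of Cdkn1a overlap 1700023B13Rik on the opposite strand, which had 1 to 10 counts a library, and 625 of Cdkn1c overlap the antisense gene Gm44732, which had 0 or 1. Cdkn1a itself had 2668 to 4232 counts a library.

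Neighbours of the inhibitor genes on their chromosomes did not all move with them. Beside Cdkn1a, the splicing factor gene Srsf3 (47.6 kb away) rose by 0.58 and Rab44 (13.4 kb away, 3.34 CPM untreated) fell by 1.29 on the log2 scale. Beside Cdkn1b, the receptor gene Gpr19 (21.8 kb) rose by 0.73 and Apold1 (56.2 kb) fell by 0.43. Slc22a18, beside Cdkn1c in the same imprinted domain, fell by 0.48, and Kcnq1 on its other side was at 0.56 and did not pass (edgeR adjusted p = 0.214). Faf1 beside Cdkn2c (0.02), Kri1 beside Cdkn2d (0.11) and Cnih1 beside Cdkn3 (0.09) did not pass (edgeR adjusted p = 0.748, 0.287 and 0.106), but Cnih1 did without BML-210 replicate 1 (adjusted p = 0.0169; 0.0169 to 0.927 over 16 alternatives). The Rab44 value was -0.84 without BML-210 replicate 1 and -1.99 without BML-210 replicate 2.

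Among 10136 genes with a mean of at least 5 CPM, those with the pattern most like that of Cdkn1a over the 4 libraries were Eri3, Afdn and 1810013L24Rik, with a root-mean-square distance of 0.00605 to 0.00778 between log2 CPM values centred on each gene's mean. For Cdkn1b they were Zfp110, Ubald2 and Kdm2a (0.00257 to 0.00559). Ubald2 did not pass in 4 of 4 fits that left out a library (adjusted p of 0.0666 to 0.0945), with thinned counts (0.0733) or in DESeq2 (0.138), and Zfp110 did not in DESeq2 (0.0533). For Cdkn3 they were Utf1, Nkx2-2 and Klf8 (0.0158 to 0.0188), of which Nkx2-2 did not pass without untreated replicate 1 (adjusted p = 0.121) or BML-210 replicate 1 (0.104) or in DESeq2 (0.115). With 4 libraries in 2 groups, this measure picks genes with a fold change of like size.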

How the data were processed

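Total RNA of 4 libraries was measured. Per the submitters' processing notes the tools were bcl2fastq, STAR 2.5, featureCounts of Subread 1.5.1 and edgeR 3.20.8, with build mm10. The authors deposited 1 table of raw read counts per gene with exonic lengths. Settings for strand, multi-mapping reads and annotation: not given in the sources used here. Gene classes came from GENCODE M21 (98.3% of identifiers matched) and upstream sequences from RefSeq (7 of 8 members matched).

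The deposited counts were fitted with edgeR 4.0.16 under R 4.3.3: filterByExpr (14455 of 56350 genes kept), TMM scaling, glmQLFit with robust=TRUE and glmQLFTest on group alone, with Benjamini-Hochberg adjustment across the tested genes and a threshold of 0.05. An SE is the log2 fold change over the square root of F, and 95% intervals use the fit's t distribution. CPM and RPKM use TMM-scaled library sizes. The steps were also run on simulated data with far fewer changed genes than were called here. That run checks the steps only, not the results given above.

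Library totals ran from 13167893 to 16534667 counts. Replicates differed beyond sampling noise: chi-square per degree of freedom was 2.70 (untreated) and 1.76 (BML-210). The common coefficient of variation that edgeR estimated between replicates was 2.49%. Alternatives were other scalings and filters, DESeq2 1.42.0, limma-voom (limma 3.58.1), the likelihood ratio test, robust=FALSE, a replicate block, each library left out, abundant genes left out and thinned counts.

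The members and lists were chosen with earlier results of these data known. Named are all members, up to 4 genes per list with the smallest adjusted p and up to 2 called against their list, the 3 genes most like each called member, and the nearest protein-coding neighbours. The neighbours 4930522H14Rik, Ap1m2 and Bmp4 were not tested, and their values are not given. Named outside this naming rule, after their values were seen, are Skp2, Ccnd2, Ccne1, Btg2, Gm44732, 1700023B13Rik and the marker genes Epcam, Krt8, Krt18, Cdh1, Esr1, Pgr, Elf5, Cd68, Adgre1, Ptprc, Lyz2, Tyrobp, C1qc, Pdgfra, Col1a1, Lum and Thy1, with the genes whose exons overlap a named one.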

Additional observations from a re-analysis of the deposited data

How the results depend on the processing

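Over 16 alternatives each, Cdkn1a, Cdkn1b and Cdkn3 kept their direction and passed throughout: log2 fold changes ran from -0.35 to -0.29 (highest adjusted p = 6.65e-08), from 0.19 to 0.24 (0.00129) and from 0.40 to 0.61 (0.0184). Cdkn1c (0.22 to 0.58) and Cdkn2d (-0.34 to -0.0032) passed in none, and counts of members remained 2 higher and 1 lower. Cdkn2c, near 0, changed sign with upper-quartile factors (-0.021) and ran from -0.16 to 0.16 as single libraries were left out, negative without untreated replicate 1 (-0.11) or BML-210 replicate 1 (-0.16), and never passed. Faf1 likewise turned to -0.0064 with upper-quartile factors and ran from -0.011 to 0.056 as single libraries were left out (-0.0106 with untreated replicate 2 left out and -0.000102 with BML-210 replicate 2 left out). RPKM in the untreated group moved by more than their very small SD with upper-quartile factors (Cdkn1a 73.0, Cdkn1b 26.8) and with library size only (71.8 and 26.4). Of the values of the 67 other named genes, 38 fell short of the threshold and 1 newly passed; each lost call is given with its result. DESeq2 ended 10 of them, those of Cdk2, Rb1, Id1, Hdac1, Mnat1, Mtap, Pmaip1, Zfp110, Ubald2 and Nkx2-2; upper-quartile factors ended that of Cdk2, thinned counts that of Ubald2, and library size only and no filter those of Rb1 and Id1. The share of all tested genes that passed ran from 19.3% with no filter and 27.6% in DESeq2 to 48.8% with a mean of at least 1 CPM, and from 37.0% to 38.8% as single libraries were left out, against 46.4%. Where a library is left out, the lone sample of its group is assumed to vary like the other group.

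With the replicate number as a block (paired fit), Cdkn1a was at -0.32 (adjusted p = 3.02e-18), Cdkn1b at 0.22 and Cdkn3 at 0.51, and 3385 genes were higher and 3462 lower over the whole table. Same-numbered libraries share only a number: the correlation of their deviations from the group means was 0.0129. With 36 to 141 counts a library, the counting error of Cdkn1c, Cdkn2c and Cdkn2d was 8.42% to 16.7% of the count, and whether depth set their missing calls was not tested.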
